A study of Mus musculus with 56 samples.

Results

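Glycolysis in skeletal muscle runs on a set of enzymes, of which some are muscle forms and others, such as Gapdh, are shared with many tissues. Described here are 10 of the genes that encode this set, namely Hk2, Gpi1, Pfkm, Aldoa, Tpi1, Gapdh, Pgam2, Eno3, Pkm and Ldha. The genes were listed by name and not by a cut on a measured value, but earlier results of these data were known when they were listed. All 10 were found among the 15539 genes of the count table, and all 10 were among the 14321 genes left after a filter on low counts. RNA of the gastrocnemius, a mixed-fibre calf muscle, was sequenced from 56 C57Bl/6 mice that were fed chow, with 7 mice in each of 8 groups. The groups combine sex, genotype and a wheel that was either locked or free to run on. The labels give an age of 5 months and place the wheels between week 10 and week 20 of life, which is 10 weeks of voluntary running for the running mice and of a locked wheel for the others. In mice labelled HuRm-/-, floxed Elavl1, the gene of the RNA-binding protein HuR, was to be removed by a Cre driven from the fast myosin light chain gene Myl1, so that only cells that use this promoter are targeted. The controls carried the floxed gene without a deletion. Group codes give the sex (M or F), then C for control or H for HuRm-/-, then E for a running wheel, so that MC, MH, FC and FH had locked wheels and MCE, MHE, FCE and FHE had running wheels. How far each mouse ran was not analysed here.

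The glycolytic enzymes act in a fixed order. Hexokinase traps glucose in the cell as glucose 6-phosphate, phosphoglucose isomerase and phosphofructokinase prepare the sugar, aldolase splits it, and the later enzymes harvest ATP and NADH before pyruvate is made and then reduced to lactate. Fast fibres hold large amounts of these enzymes, which pay for short and intense work, whereas fibres that work for long periods burn more fat and pyruvate in mitochondria. Hexokinase 2 is a classic gene of muscle that responds to insulin and to exercise, and repeated endurance work is known to shift lactate dehydrogenase from its muscle subunit toward its heart subunit.

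The libraries held 6639782 to 21633091 counts (median 12380363), of which the 10 genes took 1.22 to 1.91%. The 8 skeletal muscle identity genes looked for, among them Acta1, Ckm and Myh4, had counts in every mouse, and their summed level was 90500 to 142000 CPM (read counts normalized by TMM and scaled to library size). The gene that was to be deleted did not check the labels. Elavl1 had median levels of 54.0, 54.4, 44.5 and 51.5 CPM in the control groups MC, MCE, FC and FCE, and of 50.5, 61.3, 47.9 and 52.8 CPM in MH, MHE, FH and FHE. The log2 difference between mice labelled HuRm-/- and controls was 0.44 ± 0.11 (SE) in running males, which passed the test as higher (limma adjusted p = 0.024), and it was -0.05, 0.11 and 0.01 in locked males, locked females and running females, where it did not pass. Myl1 was lower in mice labelled HuRm-/- in each of these comparisons, by -0.44 to -0.77 on the log2 scale. The unadjusted limma p was 0.0010 to 0.055 and the adjusted p 0.065 to 0.36, so no difference passed. The study reported lower Elavl1 mRNA in gastrocnemius of HuRm-/- mice, measured by qPCR, which these counts did not show. Directions drawn from the genotype label below rest on the label, since these counts did not check it. FH replicate 34 stood apart from its group in several of the 10 genes, and values without it are given where it moved a result by much or changed a call. The mitochondrially encoded share of counts ran from 25.6 to 27.8% in MC and from 26.2 to 30.6% in MCE, but from 25.6 to 30% in FC and from 20.5 to 24.5% in FCE, so that it differed with the wheel in opposite directions in control males and control females.

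Upstream sequences are shown for Hk2, which rose with running in both female lines, and for Gapdh, which fell with running in control males. Each is the stretch of 250 bases before the RefSeq transcript start on GRCm38.p6, read 5′ to 3′ on the strand of the gene, which is the minus strand for both. Capitals mark ACGTG, a form of the core letters of the hypoxia response element, or its reverse complement CACGT. The other form, GCGTG, was not searched and is left in small letters, and it occurs in the Gapdh stretch. The Hk2 stretch is chr6:82774455-82774704 and the Gapdh stretch is chr6:125165774-125166023.
Hk2: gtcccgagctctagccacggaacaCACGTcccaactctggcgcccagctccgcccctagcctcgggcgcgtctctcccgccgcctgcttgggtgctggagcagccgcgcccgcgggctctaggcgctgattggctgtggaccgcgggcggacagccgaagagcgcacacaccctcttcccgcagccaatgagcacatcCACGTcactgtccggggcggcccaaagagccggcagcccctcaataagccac
Gapdh: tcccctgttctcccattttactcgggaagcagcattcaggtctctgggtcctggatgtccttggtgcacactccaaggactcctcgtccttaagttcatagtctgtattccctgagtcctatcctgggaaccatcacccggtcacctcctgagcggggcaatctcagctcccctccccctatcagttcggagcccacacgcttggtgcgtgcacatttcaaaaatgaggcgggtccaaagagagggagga
The Hk2 stretch holds 2 matches to ACGTG or CACGT, which begin 52 and 226 bases before the start, and the Gapdh stretch holds 0. Over 32851 stretches of the same length before RefSeq starts, 16.6% hold at least 1 match on either strand. The 10 genes have 17 such starts, of which 7 (41.2%) hold a match, and 5 of the 10 genes (Hk2, Pfkm, Aldoa, Pkm and Ldha) have a match at some start. Starts of the same gene count separately here, with 4 from Pfkm and 3 from Aldoa. The share of all genes with a match at some start was not counted, so no enrichment was tested. These are matches of letters, with no measurement of binding.

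In the comparison of running with locked wheels, few of the 10 genes passed the test, and those that did differed between the lines. A gene was called when the limma adjusted p, over all 14321 genes tested, was 0.05 or less. In control males 1 of 10 was called (Gapdh, lower), where 3.24% of all genes tested were called. In control females 1 of 10 was called (Hk2, higher) against 8.74% of all genes. In females labelled HuRm-/- 2 of 10 were called (Hk2 higher, Aldoa lower) against 3.85%. In males labelled HuRm-/- 0 of 10 were called against 0.0419%, with 6 of 10 at an unadjusted limma p under 0.05, as were 1821 of the 14321 genes, and edgeR and DESeq2 also called 0 of the 10. Averaged over the 4 lines of sex and genotype, 2 of 10 were called (Hk2 higher, Aldoa lower) against 5.96%. The median log2 difference of the 10 genes was -0.0016, 0.02, -0.19 and -0.05 in control males, control females, males labelled HuRm-/- and females labelled HuRm-/-, while the median over all genes was 0.02, 0.0067, 0.00071 and 0.02. The data are bulk RNA, in which fewer fibres of a type and less RNA per fibre cannot be told apart.

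**Figure D1:**
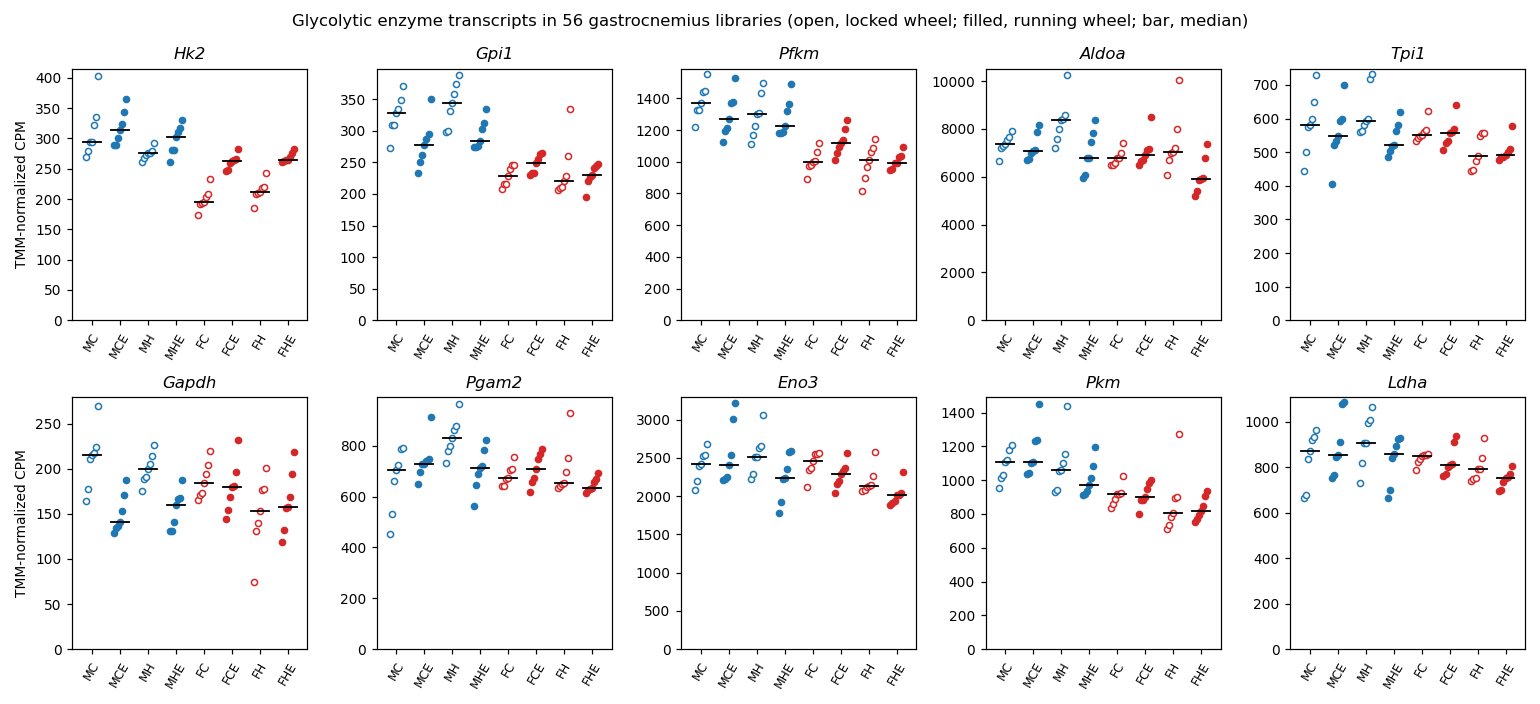
Level of each of the 10 genes (TMM-normalized CPM, y axis, from 0) in the 7 mice of each group (x axis, group codes). Points are mice, open with locked and filled with running wheels, blue males and red females, and bars are medians. Hk2 in FCE (247 to 282) and FHE (262 to 283) lies wholly above FC (174 to 232) and FH (185 to 243), whereas most other groups overlap between wheels.

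Hk2 (ENSMUSG00000000628, chromosome 6, 82725025 to 82774454 on the minus strand of GRCm38) encodes hexokinase 2, which phosphorylates glucose as it enters the fibre. In control females its level was 174 to 232 CPM with locked wheels (median 195) and 247 to 282 CPM with running wheels (median 263). The mice labelled HuRm-/- gave 185 to 243 CPM with locked wheels (median 212) and 262 to 283 CPM with running wheels (median 265). In each female line the lowest running mouse was above the highest locked mouse. This lack of overlap, with running higher, was met by 1.10% of all genes in control females and by 0.279% in females labelled HuRm-/-, and Hk2 was the sole gene of the 10 that met it in any line. The log2 difference was 0.39 ± 0.07 (SE), or 1.31-fold, in control females (adjusted p = 0.00013) and 0.33 ± 0.06, or 1.26-fold, in females labelled HuRm-/- (adjusted p = 0.00091).

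The male groups had Hk2 means above those of the running females with either wheel. Its level was 269 to 404 CPM in MC (median 294) and 288 to 366 CPM in MCE (median 314), and these groups overlapped throughout. It was 261 to 292 CPM in MH (median 276) and 262 to 331 CPM in MHE (median 302). The log2 difference with running was 0.02 ± 0.06 in control males (95% interval -0.10 to 0.15, adjusted p = 0.91) and 0.11 ± 0.06 in males labelled HuRm-/- (interval -0.02 to 0.24, adjusted p = 0.47). By group mean the order ran from FC (200 ± 18 CPM, SD, n = 7) through FH (214 ± 17.3), FCE (261 ± 12.1), FHE (269 ± 8.02), MH (275 ± 9.75), MHE (298 ± 24.3) and MC (314 ± 45.7) to MCE (318 ± 29), and FH to FCE was the one step larger than the SD of the neighbouring groups. The difference between the sexes in the wheel effect was tested as an interaction. In controls it was 0.37 ± 0.09 on the log2 scale (adjusted p = 0.0073), with 1 of 10 genes called against 8.74% of all genes. In mice labelled HuRm-/- it was 0.22 ± 0.09 (interval 0.04 to 0.40, adjusted p = 0.22), with 0 of 10 called against 1.35%. There 2 of 10 were at an unadjusted limma p under 0.05, as were 2110 of the 14321 genes. The Hk2 calls in both female lines were kept in each of 14 other settings and in each of 56 fits that left out 1 mouse. In controls the interaction did not pass without the mice above 500 CPM of summed liver markers (0.35, adjusted p = 0.056). That cut kept 6 of 7 mice in MC and FH, 4 of 7 in MH, MHE and FC, and all 7 in the other groups. Each fit that uses it therefore also has fewer mice.

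Several cell markers moved with the wheel in control females, beside Hk2, where 8.74% of all genes were called. Of the adipocyte markers 4 of 10 fell (Adipoq, Plin1, Retn and Cfd), from a summed level of 4450 to 5090 CPM in FC to 4200 to 4780 CPM in FCE. Liver markers fell in 3 of 20 (Alb, Trf and Pck1), from a sum of 144 to 4020 CPM to 41.9 to 226 CPM, and Tat, Cps1, Mup3 and Serpina1a were at 0 in some FCE mice. Erythroid markers fell in 4 of 5, from 1750 to 6390 CPM to 1050 to 3030 CPM, and leukocyte markers in 3 of 6 measured, from 68.2 to 163 CPM to 41.4 to 93.1 CPM. The Hk2 difference was 0.39 (adjusted p = 0.012) without the mice above 500 CPM of liver markers, 0.42 with liver markers as a covariate and 0.41 with adipocyte markers as a covariate. The part of the erythroid and leukocyte markers in it was not tested. Muscle identity genes moved as well, since Ttn rose by 1.01 ± 0.17 (adjusted p = 0.00012) and Mb by 0.31 ± 0.10 (adjusted p = 0.042) of 8 such genes, whose summed level had a median of 95600 CPM in FC and 113000 CPM in FCE. Ttn also had an interaction of wheel and sex in controls (1.08 ± 0.24, adjusted p = 0.0022). In females labelled HuRm-/- the liver sum had a median of 182 CPM in FH and 55.3 CPM in FHE, and the median log2 difference was -1.97 over the 20 liver markers and -0.36 over the 10 adipocyte markers. Of these Lpl was called (higher, 0.58), while Adipoq, Plin1, Cidec and Lep differed by -0.63, -0.59, -0.58 and -1.52 (adjusted p = 0.22, 0.23, 0.26 and 0.059). The part of these markers in the Hk2 difference of that line was tested only by leaving out the mice above 500 CPM of liver markers, which gave 0.33 (adjusted p = 0.0059), and with liver and adipocyte markers as covariates, where the call was kept.

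Gpi1 (phosphoglucose isomerase) and Pfkm (muscle phosphofructokinase, the main control point of the pathway) follow hexokinase. Gpi1 was at 272 to 371 CPM in MC (median 327) and 233 to 350 CPM in MCE (median 278). The log2 difference was -0.22 ± 0.08 in control males (adjusted p = 0.12) and -0.21 ± 0.08 in males labelled HuRm-/- (adjusted p = 0.26), so neither passed although the running median was the lower in both. In control females Gpi1 was at 209 to 246 CPM with locked wheels (median 228) and 231 to 265 CPM with running wheels (median 250), a difference of 0.11 ± 0.08 (adjusted p = 0.43). Pfkm had medians of 1372, 1269, 995 and 1117 CPM in MC, MCE, FC and FCE. Its log2 difference was -0.10 ± 0.07 in control males (adjusted p = 0.53) and 0.16 ± 0.07 in control females (adjusted p = 0.13). The interaction of wheel and sex in controls was 0.33 ± 0.12 for Gpi1 (adjusted p = 0.059) and 0.26 ± 0.10 for Pfkm (adjusted p = 0.084). These values lie close to the threshold. Gpi1 was called in 6 of the other settings, among them DESeq2 (0.34, adjusted p = 0.043), and Pfkm in 2 of them, and neither was called in the others.

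Aldoa encodes the muscle aldolase, which splits fructose 1,6-bisphosphate, and was the most counted of the 10. In females labelled HuRm-/- its level was 6060 to 10040 CPM with locked wheels (median 7023) and 5202 to 7390 CPM with running wheels (median 5910). The groups overlapped, and FH replicate 34 was the highest locked mouse. The log2 difference was -0.29 ± 0.08, or 0.82-fold (adjusted p = 0.026). Without FH replicate 34 it was -0.21 (adjusted p = 0.11) and did not pass, and the call was also lost without any 1 of FHE replicates 2, 3, 7 and 8 and in 4 of 14 other settings. In males labelled HuRm-/- the locked mice were at 7216 to 10270 CPM (median 8392) and the running mice at 5936 to 8375 CPM (median 6784), a difference of -0.25 ± 0.08 that did not pass (adjusted p = 0.19). Control males and control females differed by -0.03 ± 0.08 and 0.05 ± 0.08 with running (adjusted p = 0.92 and 0.74). The mean over the 4 lines was -0.13 ± 0.04 (adjusted p = 0.042), and this call was lost in 14 of the 56 fits that left out 1 mouse, where the adjusted p reached 0.064. Those mice were FC replicate 33, FCE replicate 27, FH replicate 34, FHE replicate 2, MC replicate 20, MCE replicates 25, 26, 27 and 28, MH replicates 12 and 15, and MHE replicates 6, 7 and 21. Tpi1, the triose phosphate isomerase that interconverts the products of that split, lay between 405 and 733 CPM over all 56 mice, and its log2 differences with running were -0.19 to 0.00, of which none passed.

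Gapdh, which oxidizes glyceraldehyde 3-phosphate and is widely used as a reference gene, fell in control males. Other markers called in the same comparison were leukocyte Itgam (1.38 ± 0.34, adjusted p = 0.014), endothelial Kdr (0.35 ± 0.11, adjusted p = 0.045) and muscle Mb (0.58 ± 0.10, adjusted p = 0.00043), which were higher, and muscle Ckm (-0.37 ± 0.08, adjusted p = 0.0054), which was lower. Itgam and Kdr were each the sole gene called of the 6 measured in their lists. The other leukocyte markers differed by 0.07 to 0.58 and the other endothelial markers by -0.09 to 0.23. The part of all these markers in the Gapdh difference was not tested. Gapdh was at 164 to 269 CPM in MC (median 216) and 129 to 188 CPM in MCE (median 141). The groups overlapped in part, since MC replicates 17 and 18 were at 164 and 178 CPM while MCE replicates 5 and 10 were at 188 and 171 CPM. The log2 difference was -0.48 ± 0.13, or 0.72-fold (adjusted p = 0.026). It was -0.43 to -0.55 over the 56 fits that left out 1 mouse, and the call was lost without any 1 of MC replicates 20 and 29 and MCE replicates 13, 25 and 27 (adjusted p up to 0.067), as well as without the mice above 500 CPM of liver markers (-0.47, adjusted p = 0.065). The noncoding gene Gm42418 took 9.41 to 11.4% of counts in MC and 6.51 to 9.78% in MCE. With Gm42418 and the mitochondrially encoded genes left out, the Gapdh difference was -0.49 (adjusted p = 0.022). Males labelled HuRm-/- gave 175 to 226 CPM with locked wheels (median 200) and 131 to 188 CPM with running wheels (median 159), a difference of -0.37 ± 0.13 that did not pass (adjusted p = 0.24). In females the differences were -0.07 ± 0.13 in controls (adjusted p = 0.80) and 0.16 ± 0.13 in mice labelled HuRm-/- (adjusted p = 0.56). The value in females labelled HuRm-/- rested on FH replicate 34, and was -0.0025 ± 0.11 without it (adjusted p = 0.99). The interaction of wheel and sex was 0.41 ± 0.19 in controls (adjusted p = 0.17), so the fall was not shown to differ between the sexes. Gapdh varied the most of the 10 within groups (SD 0.26 on the log2 scale, against 0.12 to 0.17 for the other genes), and its lowest mouse was FH replicate 34 at 74.4 CPM.

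Gapdh also has many near copies in the genome, among which the counting could split reads. The last 500 bases of its transcript match 90 other genes at 95% identity or more over at least 100 bases, 86 of them pseudogenes. The count table holds 27 of these pseudogenes, with a median of 8.49 to 10.1% of the summed counts of Gapdh and copies per group. With their counts added, the difference in control males was -0.46 ± 0.13 (adjusted p = 0.025). This sum covers only reads that were counted to Gapdh or to a copy. The counter is not known, and reads left uncounted because they matched several genes could not be examined. Gpi1 shares such a stretch with 3 other genes, of which Mrpl27 and Wdr33 are in the table, and the other 8 genes of the set share none over their last 500 bases. Over the whole transcript Gpi1 and Ldha each match 5 other genes, Pkm 2 and Tpi1 1, and those of Ldha, Pkm and Tpi1 are not in the table. Ldhb, used in a ratio below, matches 1 pseudogene over its last 500 bases, which is not in the table.

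**Figure D2:**
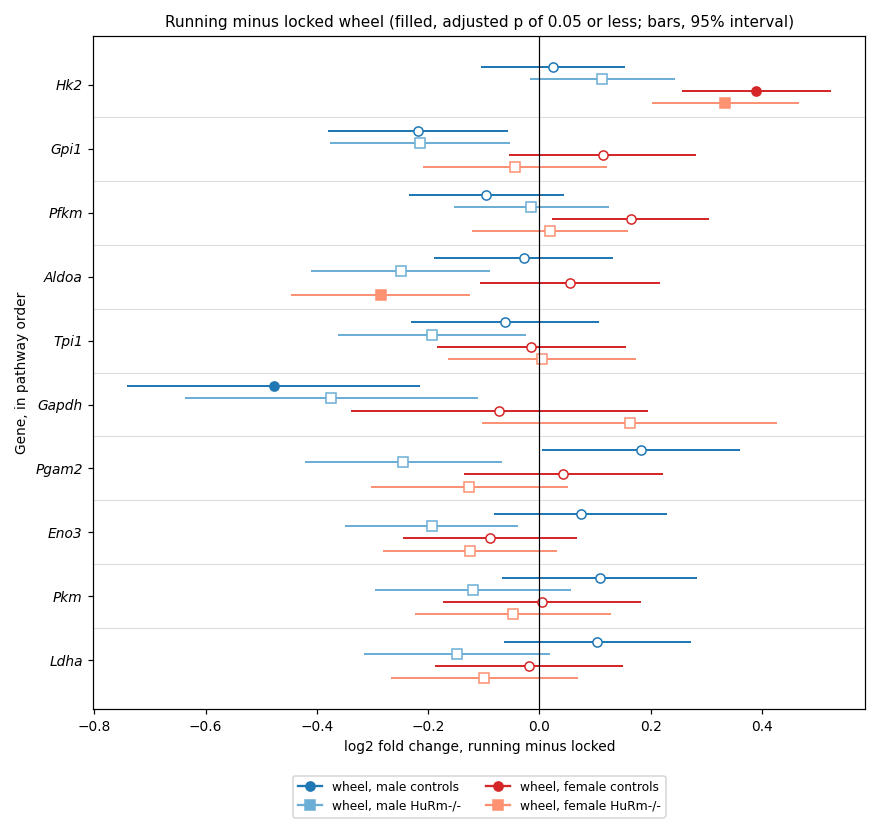
Difference between running and locked wheels (log2 fold change, x axis) for the 10 genes in pathway order (y axis), in control males and males labelled HuRm-/- (blue) and control females and females labelled HuRm-/- (red), with 7 mice in each group. Points are estimates of the limma fit, filled where the adjusted p was 0.05 or less, and bars are 95% intervals. The filled points are Gapdh in control males (-0.48), Hk2 in both female lines (0.39 and 0.33) and Aldoa in females labelled HuRm-/- (-0.29).

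The later steps of the pathway showed no called difference with running in any line. Pgam2, the muscle phosphoglycerate mutase, had medians of 705 and 727 CPM in MC and MCE and of 828.6 and 712 CPM in MH and MHE. Its log2 differences with running were 0.18 ± 0.09 in control males and -0.24 ± 0.09 in males labelled HuRm-/- (adjusted p = 0.27 and 0.25), and the difference between these was -0.43 ± 0.12 (interval -0.68 to -0.18, adjusted p = 0.23). Eno3, the muscle enolase, had differences of 0.07, -0.09, -0.19 and -0.12 in control males, control females, males labelled HuRm-/- and females labelled HuRm-/-, each with an SE of 0.08. Pkm encodes pyruvate kinase, which makes ATP and pyruvate. Its differences in the same order were 0.11, 0.01, -0.12 and -0.05, each with an SE of 0.09, and the last of these was 0.05 ± 0.08 without FH replicate 34 (adjusted p = 0.81). The adjusted p was 0.29 to 0.70 for Eno3 and 0.58 to 0.98 for Pkm.

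In males labelled HuRm-/- the estimates of 9 of the 10 genes were below 0, Hk2 being the exception, and none was called. The SEs were 0.06 to 0.13, and apart from Gapdh, Aldoa and Pgam2 the negative values ran from -0.01 (Pfkm) to -0.21 (Gpi1). The 9 genes share the same 14 libraries, so they are not separate evidence. The summed fast-fibre markers were 88500 to 116000 CPM in MH and 79300 to 107000 CPM in MHE, and their part in the lower estimates was not tested. Tested directly, the wheel effect was not shown to differ between genotypes. In males 0 of 10 genes were called against 0.0349% of all genes. There 3 of 10 were at an unadjusted limma p under 0.05, as were 1275 of the 14321 genes. In females 0 of 10 were called against 0% of all genes, with 1 of 10 at an unadjusted limma p under 0.05, as were 1472 of the 14321 genes. Neither edgeR nor DESeq2 called any of the 10 in these comparisons.

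Ldha, which encodes the muscle subunit of lactate dehydrogenase, was itself not called in any line. Its medians were 869 and 852 CPM in MC and MCE, 906 and 856 CPM in MH and MHE, 849 and 808 CPM in FC and FCE, and 793 and 753 CPM in FH and FHE, and its log2 differences were -0.15 to 0.10. Ldhb, the heart subunit, rose with running. Its level in control males was 71.8 to 119 CPM with locked wheels and 93.9 to 186 CPM with running wheels, a log2 difference of 0.66 ± 0.12 (adjusted p = 0.00081). In control females it was 92.6 to 140 CPM and 135 to 173 CPM, a difference of 0.45 ± 0.12 (adjusted p = 0.013). In females labelled HuRm-/- it was 101 to 132 CPM and 148 to 210 CPM with no overlap, a difference of 0.58 ± 0.12 (adjusted p = 0.0017), and in males labelled HuRm-/- the difference of 0.33 ± 0.12 did not pass (adjusted p = 0.25).

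The ratio of the muscle form to the other form was then compared within each mouse, which does not depend on the scaling of the library. The log2 ratio of Ldha to Ldhb in females labelled HuRm-/- was 2.77 ± 0.16 (SD, n = 7) with locked wheels and 2.10 ± 0.21 with running wheels, and the lowest locked mouse (2.50) was above the highest running mouse (2.31). The difference of -0.68 had an exact permutation p of 0.00058, the smallest that 3432 splits of 7 and 7 mice can give in a two-sided test, and an adjusted p of 0.014 over 24 ratio tests. In the other lines the ratio was lower by -0.56 in control males, -0.47 in control females and -0.48 in males labelled HuRm-/-, with exact permutation p of 0.023, 0.0058 and 0.045 and adjusted p of 0.11, 0.070 and 0.15, so these did not pass. The control females passed without FCE replicate 25, FCE replicate 28 or MCE replicate 27 (adjusted p down to 0.035), and without the last of these 3 of the 24 tests passed. The ratios of Hk2 to Hk1, Pfkm to Pfkl, Aldoa to Aldoc, Pgam2 to Pgam1 and Eno3 to Eno1 did not pass in any line, with exact permutation p adjusted to 0.11 or more. Hk2 to Hk1 differed by 0.40 in control females (exact permutation p = 0.23) and by 0.03 in females labelled HuRm-/- (exact permutation p = 0.83). Hk1 was at 3.91 to 13.6 CPM in FC, and its lowest count in any mouse was 30. Aldoc and Pgam1 reached 0 counts in some mice, which leaves their ratios with little precision.

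**Figure D3:**
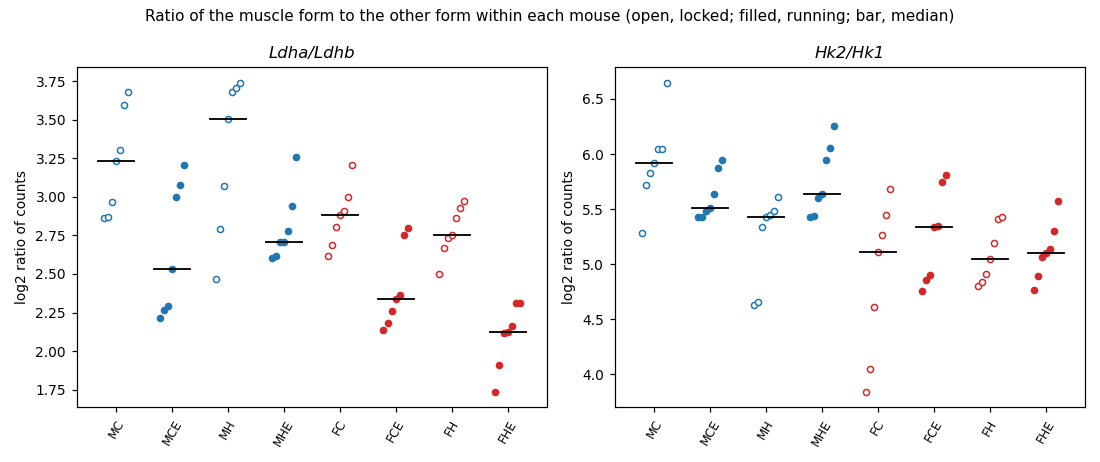
Log2 ratio of the counts of Ldha to Ldhb (left) and of Hk2 to Hk1 (right) in each mouse (y axis, not from 0) by group (x axis, group codes). Points are mice, open with locked and filled with running wheels, and bars are medians of 7 mice. The medians of the Ldha to Ldhb ratio are lower in running than in locked mice in every line (2.53 against 3.23, 2.71 against 3.51, 2.34 against 2.88 and 2.12 against 2.75), and those of Hk2 to Hk1 have no common direction.

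The sexes were compared under each wheel. In locked controls 4 of 10 genes were lower in females (Hk2, Gpi1, Pfkm and Pkm), where 21.5% of all genes were called and 11.2% were called lower. Markers moved with sex there too. Of the muscle identity genes 5 of 8 were lower in females (Ttn -0.96, Des -0.62, Myh4 -0.51, Ckm -0.34 and Tnnt3), with a median sum of 95600 CPM in FC and 127000 CPM in MC. Higher in females were 7 of 10 adipocyte markers (Adipoq 1.90), 5 of 5 erythroid markers (Hbb-bs 1.52), 5 of 6 leukocyte markers (Lyz2 1.32 and Ptprc 1.07) and 5 of 20 liver markers. Their part in the sex differences was tested only for liver and adipocyte markers. In running controls 2 of 10 were lower (Hk2 and Pkm) against 7.65% called and 4.57% called lower. The Pkm call was lost with adipocyte markers as a covariate (-0.27, adjusted p = 0.070). The Hk2 call was lost with a fixed replicate block (-0.19, adjusted p = 0.18), which kept only MCE and FCE replicates 5 and 25 to 28. For Hk2 the female-minus-male log2 difference was -0.65 ± 0.07 with locked wheels (adjusted p = 4.46e-11) and -0.28 ± 0.06 with running wheels (adjusted p = 0.0024), and the interaction given above is the test of that change. For Gpi1 it was -0.50 ± 0.08 (adjusted p = 5.11e-06) and -0.17 ± 0.08 (adjusted p = 0.21), and for Pfkm -0.46 ± 0.07 (adjusted p = 1.04e-06) and -0.20 ± 0.07 (adjusted p = 0.058). Since their interactions did not pass, these 2 genes were not shown to differ between the wheels. Pkm was lower in females by -0.25 ± 0.09 with locked wheels (adjusted p = 0.031) and -0.36 ± 0.09 with running wheels (adjusted p = 0.0046). The locked call of Pkm was lost in 4 other settings and without any 1 of FC replicates 20 and 33 and MC replicates 17, 18 and 29. The settings were upper-quartile normalization, liver markers as a covariate, adipocyte markers as a covariate, and leaving out the mice above 500 CPM of liver markers. Over all 14 other settings the estimate was -0.29 to -0.14, with adjusted p up to 0.37.

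In locked mice labelled HuRm-/- the level was lower in females for 8 of 10 genes (all but Aldoa and Ldha), where 19.3% of all genes were called and 10.2% were called lower. In running mice labelled HuRm-/- 2 of 10 were lower (Gpi1 and Pfkm) against 5.57% called and 3.26% called lower. With adipocyte markers as a covariate the Gpi1 call was lost (-0.25, adjusted p = 0.084). The Gpi1 and Pfkm calls were both lost with a fixed replicate block (-0.28 and -0.32, adjusted p = 0.12 and 0.074), which kept only MHE and FHE replicates 2, 7, 21 and 22. Gpi1 was lower by -0.53 ± 0.08 with locked wheels and -0.36 ± 0.08 with running wheels (adjusted p = 1.79e-06 and 0.0026), and Pfkm by -0.37 ± 0.07 and -0.34 ± 0.07 (adjusted p = 5.28e-05 and 0.00069). The interactions of wheel and sex for these genes were 0.17 ± 0.11 (interval -0.06 to 0.40) and 0.03 ± 0.10 (interval -0.16 to 0.23), with adjusted p of 0.51 and 0.92. Hk2 was lower by -0.37 ± 0.06 with locked wheels (adjusted p = 2.93e-05), and the difference of -0.15 ± 0.06 with running wheels did not pass (adjusted p = 0.19). Pkm differed by -0.27 ± 0.09 with running wheels (adjusted p = 0.052) and was called in 8 of the other settings. The count of 8 fell to 4 with adipocyte markers as a covariate, with the 2 groups fitted alone, and without the mice above 500 CPM of liver markers, and the adipocyte sum was 2480 to 4720 CPM in MH and 4120 to 6550 CPM in FH. In this comparison 5 of 8 muscle identity genes and 11 of 20 liver markers were also lower in females, and 7 of 10 adipocyte, 3 of 5 erythroid and 3 of 6 leukocyte markers were higher. Without FH replicate 34 the Gapdh difference went from -0.48 to -0.31 (adjusted p = 0.040) and that of Aldoa from -0.18 to -0.25, which was then called (adjusted p = 0.010). The call of Pgam2 was lost without any 1 of FH replicates 14, 17, 19, 30 and 31, FHE replicate 2 and MH replicates 11, 12, 15 and 23. That of Eno3 was lost without any 1 of FH replicates 13, 14, 17, 19 and 30, FHE replicate 2 and MH replicates 8, 12, 15 and 23. Sex was compared with locked wheels after the data had been seen.

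**Figure D4:**
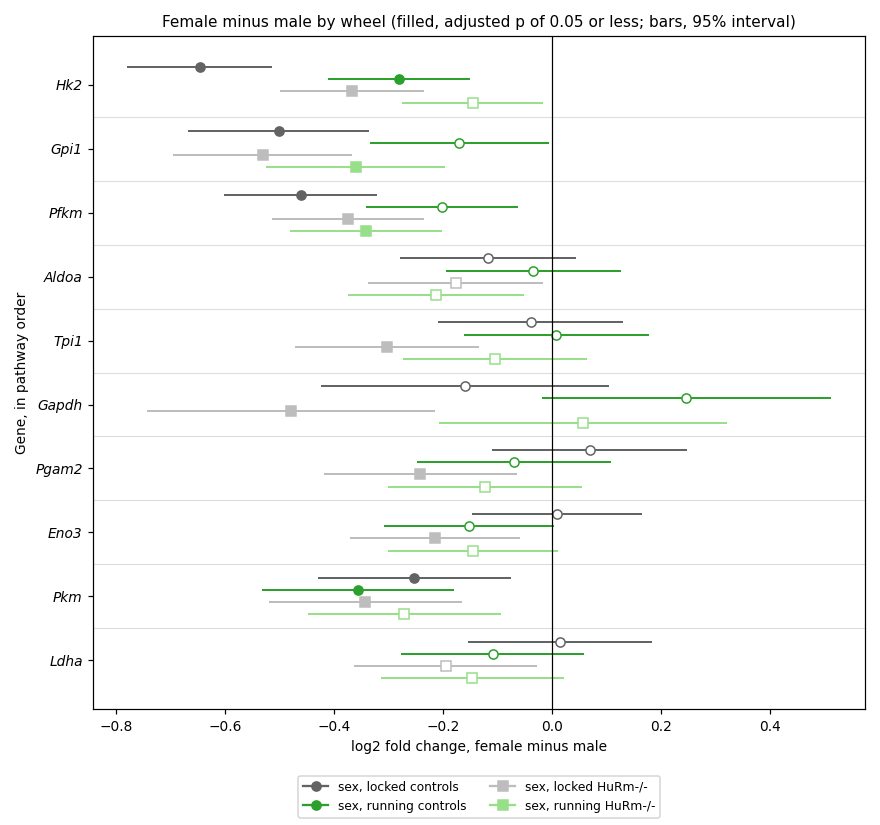
Difference between females and males (log2 fold change, female minus male, x axis) for the 10 genes in pathway order (y axis), with locked wheels (grey) and running wheels (green), in controls (circles) and mice labelled HuRm-/- (squares), with 7 mice in each group. Points are estimates of the limma fit, filled where the adjusted p was 0.05 or less, and bars are 95% intervals. In controls the estimate of Hk2 moves from -0.65 with locked wheels to -0.28 with running wheels.

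The genotype label went with little difference in these genes. With running wheels 0 of 10 were called in males, against 2.63% of all genes, and 0 of 10 in females, against 0%. At an unadjusted limma p under 0.05 were 2 of the 10 in males and 3 in females, as were 2223 and 1807 of the 14321 genes. The tools edgeR and DESeq2 also called 0 of the 10 in both. The estimates were below 0 in 8 of 10 genes in running males and in 9 of 10 in running females, and the largest were -0.22 ± 0.09 for Pkm in males (adjusted p = 0.17) and -0.23 ± 0.08 for Aldoa in females (adjusted p = 0.21). With locked wheels Pgam2 was higher in males labelled HuRm-/-, at 733 to 964 CPM (median 828.6) against 451 to 789 CPM (median 705) in controls, a difference of 0.35 ± 0.09 (adjusted p = 0.036). It was 1 of 10 called, against 1.15% of all genes, and the call was lost without any 1 of MC replicates 19 and 20 and MH replicates 9, 11, 15, 23 and 24. In locked females 0 of 10 were called against 0.384%, and edgeR and DESeq2 called 0. There 1 of 10 was at an unadjusted limma p under 0.05, as were 2043 of the 14321 genes.

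Other genes of the pathway were read from lists of enzymes, carriers and regulators. With running, 3.24% of all genes were called in control males and 8.74% in control females. The share was 0.0419% in males labelled HuRm-/- and 3.85% in females labelled HuRm-/-. Of 16 other enzyme forms of the same steps, 12 were tested and Hk3, Hkdc1, Gapdhs and Pklr were not in the table. With running, Ldhb and the D-lactate dehydrogenase Ldhd rose in control males, Ldhb alone rose in each of the female lines, and none of the 12 was called in males labelled HuRm-/-. Pgk1, the phosphoglycerate kinase that acts between Gapdh and Pgam2, was counted at a median of 6.51 to 10.9 CPM per group, and its differences of -0.54 to 0.09 did not pass. Among 12 enzymes of branches and of flux control, Pfkfb3, which makes the activator of phosphofructokinase, rose in both female lines. Its level was 131 to 213 CPM in FC and 195 to 322 CPM in FCE, a difference of 0.51 ± 0.15 (adjusted p = 0.024), and the difference was 0.51 ± 0.15 in females labelled HuRm-/- (adjusted p = 0.033) and -0.20 ± 0.15 in control males (adjusted p = 0.53). Its interaction of wheel and sex in controls passed like that of Hk2 (0.71 ± 0.21, adjusted p = 0.023). Fbp2, the muscle fructose bisphosphatase that reverses the phosphofructokinase step, fell in females labelled HuRm-/- (-0.54 ± 0.16, adjusted p = 0.049).

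Of 9 carriers of glucose, lactate and pyruvate, Slc2a4 (the insulin-responsive glucose transporter GLUT4) and Mpc2 (a subunit of the mitochondrial pyruvate carrier) rose in control males. Slc2a4 was at 205 to 288 CPM in MC and 276 to 333 CPM in MCE, a difference of 0.38 ± 0.09 (adjusted p = 0.010), and Mpc2 rose by 0.33 ± 0.08 (adjusted p = 0.0098). Bsg, the chaperone of the lactate carriers, rose in control females (0.28 ± 0.08, adjusted p = 0.027), and no carrier was called in either line labelled HuRm-/-. Of 19 transcription regulators tied to glycolytic or fast-fibre genes, 7 rose in control females (among them Egln1, Egln3, Nfix, Mef2c, Mef2d and Mlxip) and 6 in females labelled HuRm-/- (among them Egln3, Mef2d, Ppargc1a, Mlxip and Mlxipl), with medians over the list of 0.26 and 0.25. Of all genes tested, 8.74% and 3.85% were called in these female lines. In control males Egln3 rose and Mef2a fell, with a median of -0.08, and none was called in males labelled HuRm-/-. Egln3, a prolyl hydroxylase that is itself induced by the hypoxia factor HIF, was at 14.3 to 27.2 CPM in MC and 21.8 to 45.3 CPM in MCE, and at 26.7 to 32.1 CPM in FC and 35.4 to 63.5 CPM in FCE. Its mean difference over the 4 lines was 0.66 ± 0.07 (adjusted p = 7.13e-09). Mlxip, a glucose-sensing transcription factor, had an interaction of wheel and sex of 0.77 ± 0.16 in controls (adjusted p = 0.0016) and 0.74 ± 0.16 in mice labelled HuRm-/- (adjusted p = 0.0089), and Hif1a, a subunit of HIF, did not pass with running in any line.

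Fibre markers moved beside the glycolytic genes. Myh1 and Myh2, the myosins of type 2X and type 2A fibres, rose in 3 of the 4 lines each, Myh1 by 0.50, 0.53 and 0.60 and Myh2 by 0.60, 0.63 and 0.70 in control males, control females and females labelled HuRm-/-. In males labelled HuRm-/- they differed by 0.35 and 0.28 (adjusted p = 0.24 and 0.35). Of 10 fast-fibre markers, Actn3 and Atp2a1 fell in control males, Pvalb fell in control females, where Atp2a1 rose, and Mylpf, Tnnt3, Tnni2 and Pvalb fell in females labelled HuRm-/-. The summed fast-fibre level was 91900 to 112000 CPM in MC and 84600 to 108000 CPM in MCE, 83800 to 98800 CPM in FC and 83600 to 99300 CPM in FCE, and 80700 to 114000 CPM in FH and 73700 to 85700 CPM in FHE. The slow-fibre and oxidative-fibre sum was 1940 to 2880 CPM in MC and 2260 to 3790 CPM in MCE, and 3250 to 4200 CPM in FH and 4020 to 5180 CPM in FHE. The part of these markers in the results for Gapdh, Hk2 and Aldoa was not tested.

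The 10 genes did not vary as one. Over the 56 mice the correlation of each gene with the mean of the other 9 was r = 0.82 for Pkm, 0.81 for Pfkm, 0.79 for Gpi1, 0.77 for Eno3, 0.73 for Ldha, 0.70 for Tpi1, 0.63 for Aldoa and 0.48 for Pgam2, but 0.33 for Hk2 and 0.19 for Gapdh. The points share library, depth and the normalization, and the values are a description. Outside all lists, the genes whose log2 level was most like the mean of the 10 over the 56 mice were Tmem38a (a cation channel of the sarcoplasmic reticulum, r = 0.87, rho = 0.83), Myoz1 (a protein of the fast-fibre Z disc, r = 0.84), Adipor1 (an adiponectin receptor, r = 0.84), Fsd2 (r = 0.82) and Hfe2 (hemojuvelin, r = 0.82). Without the 2 mice farthest from the median these were 0.85, 0.82, 0.82, 0.81 and 0.80, and within groups they were 0.76, 0.78, 0.64, 0.58 and 0.56. From the lowest to the highest mouse, levels spanned 1.63-fold (Ldha) to 3.62-fold (Gapdh), and between group means 1.23-fold (Ldha) to 1.59-fold (Hk2).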

How the data were processed

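RNA of the gastrocnemius of 56 mice was sequenced, 7 separate mice in each of 8 groups of sex, genotype and wheel. The authors deposited 1 table of raw read counts per gene for all mice, from which genes of low count had already been removed. Reads were placed on GRCm38 (mm10), and R 4.0.3 and edgeR 3.38.4 are named in the submitters' processing notes, while the aligner and counter are not given in the sources used here. The labels describe a 3′ library kit with reads of 1 end and the study's methods describe stranded total RNA with paired reads, so whether levels depend on gene length is unsettled and levels were not compared between genes. Every column of the table was used.

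Groups were taken from the labels. Counts were normalized by TMM and filtered with filterByExpr (edgeR 4.0.16, R 4.3.3), transformed by voom, and fitted for all 8 groups together in limma 3.58.1, with Benjamini-Hochberg adjustment over the 14321 genes tested in each comparison and a threshold of 0.05. All adjusted p in the text are from limma unless another tool or an exact test is named. DESeq2 1.42.0 and edgeR's quasi-likelihood test were alternatives. Intervals are at 95%. Isozyme ratios were compared by two-sided exact permutation of the 7 and 7 mice, after adding 0.5 to each count. The limma fit was tested on simulated counts with known changes. The 10 genes, the gene lists and the tests were chosen with earlier results of these data known, and the comparisons of locked mice, the limit of 500 CPM on liver markers and the sum of Gapdh with its copies were added after seeing the data. All 10 genes are named, as are genes of the lists, Elavl1 and Myl1 as checks of the labels, and the 5 genes outside the lists most like the mean of the 10. A gene of the lists is not reported here by name. Libraries of a group differed by more than counting noise in every pair, so none was counted once. Group codes and replicate numbers come from the labels.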

Additional observations from a re-analysis of the deposited data

Results flagged for a closer look

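Single mice stood apart from the other 6 of their group, by a gap large against the range of the group, in 9 of 80 sets of values (10 genes in 8 groups). By chance this occurs in about 5% of such sets. The 9 cases fell on 5 mice, of which 2 were set apart more than once. FH replicate 34 was high in Gpi1 (334.6 CPM), Pgam2 (929.3 CPM), Eno3 (2576 CPM) and Pkm (1270 CPM). FHE replicate 7 was high in Tpi1 (577.4 CPM) and Eno3 (2319 CPM). The remaining cases were Tpi1 in FC replicate 18 (624 CPM), Aldoa in FCE replicate 1 (8510 CPM) and Pgam2 in MCE replicate 10 (914.4 CPM). Hk2 was set apart by its difference between the sexes in the wheel effect of controls, 0.3655 on the log2 scale, which was tested as an interaction (limma adjusted p = 0.0073).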

How the results depend on the processing

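Counts of called genes among the 10 are given here where another setting moved them by more than 1.5 times. Smaller moves were 3 for the mean of the 4 lines with DESeq2, with sample quality weights and with 10 or more counts in every mouse, where Gapdh was added, and 3 for sex in running mice labelled HuRm-/- in 7 settings, where Pkm was added, 3 for sex in locked controls in 4 settings, where Pkm was lost, and 6 to 9 for sex in locked mice labelled HuRm-/- in 4 settings. With sample quality weights they were 2 for running in control males, 1 for running in females labelled HuRm-/-, 3 for wheel by sex in controls and 1 for genotype in running males. With limma trend they were 1 for running in females labelled HuRm-/-, 1 for the mean of the 4 lines and 2 for wheel by sex in controls. When only the groups compared were fitted, which cannot give the mean of the 4 lines, they were 1 for running in females labelled HuRm-/-, 3 for wheel by sex in controls, 0 for genotype in locked males and 4 for sex in locked mice labelled HuRm-/-. Wheel by sex in controls was 2 with DESeq2, with its size factors, and with 10 or more counts in every mouse. Without mice above 500 CPM of liver markers, which left 4 mice in each of MH, MHE and FC, the counts were 0 for running in control males, 1 for running in females labelled HuRm-/-, 1 for the mean of the 4 lines, 0 for wheel by sex in controls, 0 for genotype in locked males and 4 for sex in locked mice labelled HuRm-/-. With adipocyte markers as a covariate they were 1 for sex in running controls, 1 for sex in running mice labelled HuRm-/-, 0 for genotype in locked males and 4 for sex in locked mice labelled HuRm-/-, and with liver markers as a covariate the count for sex in running mice labelled HuRm-/- was 4. The causes were not tested. No value reversed.

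Leaving out 1 mouse at a time (56 fits) gave 0 to 2 for running in control males (2 without MCE replicate 5), 1 to 2 for running in females labelled HuRm-/-, 1 to 3 for the mean of the 4 lines, 1 to 3 for wheel by sex in controls (2 without FC replicate 18, FH replicate 34 or MC replicate 19, 3 without MCE replicate 5), 2 to 3 for sex in running controls, 2 to 4 for sex in running mice labelled HuRm-/- (4 without FHE replicate 21), 0 to 1 for genotype in locked males, 3 to 4 and 6 to 9 for sex in locked controls and in locked mice labelled HuRm-/-, and 1 to 3 for the isozyme ratios.

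Some male and female groups share replicate numbers. The deviations of those mice from their group means had r of -0.202 to 0.183, and the numbers were not treated as pairs. No such r was computed for mice with unlike numbers, so this check cannot exclude a pairing. With the replicate block as a random effect (correlation 0.0222) Pkm was called for sex in running mice labelled HuRm-/- (-0.27, adjusted p = 0.0495). With a fixed replicate block on shared numbers alone the count for sex was 1 in running controls, where Hk2 differed by -0.19 (adjusted p = 0.18), and 0 in running mice labelled HuRm-/-, where Gpi1 differed by -0.28 (adjusted p = 0.12) and Pfkm by -0.32 (adjusted p = 0.074). These fits left out every mouse without a shared number, so the block and the smaller number of mice cannot be told apart. Wheel and genotype groups share no numbers.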
